A study of Mus musculus with 8 samples.

Results

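The genes of the lysosome and of autophagy were described in mouse heart through 33 named members, chosen by gene symbol: cathepsins and other proteins of the lysosomal lumen, lysosomal membrane proteins, subunits of the proton pump, the transcription factor Tfeb, the receptor Sqstm1, the ATG8 family and the machinery that starts and conjugates autophagosomes. Of these, 32 were measured among the 18193 genes of the array table, by 78 probe sets in all, and Cd63 had no probe set that named it alone. The members and the further lists were chosen with earlier results of these data known. Their shares beside those of all genes are therefore description and not a test. The hearts were those of female mice. In the KO mice 1 gene is deleted conditionally by a driver named MCK, for muscle creatine kinase, and the WT mice are their wild-type littermates, with both taken at 4 and at 10 weeks of age. Each of the 4 groups held 2 mice and each heart 1 Affymetrix array, so 8 arrays were compared, and no further allele or agent is named for either genotype. The MCK driver acts in heart and skeletal muscle cells, and its reach in the other cells of the heart was not measured here. Array median intensities lay between 34.3 and 37.4, and the number of arrays limits the precision. P-values set each difference against the spread between mice, pooled over the 4 groups and moderated over all genes. In a comparison of the ages, age and litter cannot be told apart.

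Lysosomes are acidic organelles that break down proteins, lipids and sugars. Their lumen holds hydrolases such as the cathepsins, and a multi-subunit proton pump, the V-ATPase, keeps it acid. In autophagy, portions of the cytoplasm are enclosed in a double membrane that carries lipid-linked ATG8 proteins, cargo is held to it by receptors such as Sqstm1, and the vesicle fuses with lysosomes. Heart muscle cells rely on this route to clear worn mitochondria and aggregated protein, and macrophages and fibroblasts are also rich in lysosomal enzymes.

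In the 10-week hearts, KO differed from WT in enzymes, pump subunits and ATG8 genes. Of the 32 members, 8 rose in KO: Ctsb, Ctsk, Ctsl, Ctsz, Atp6v1a, Atp6v1h, Sqstm1 and Gabarapl1. Another 3 fell, namely Ctsf, Map1lc3a and Map1lc3b. Calls are at a Benjamini-Hochberg adjusted p under 0.05 in limma over all genes. The called shares of the members were 25% higher and 9.38% lower, and over all genes tested 5.19% were called higher and 6.89% lower. Among the members only Atp6v0d2 had a mean log2 below 6, and dim genes are included in the shares of all genes. With genes below that level left out, 10 members were higher and 3 lower, and of the genes kept 9.12% were higher and 13.1% lower. The members had a median difference of 0.22 on the log2 scale and a median size of 0.40, where all genes had 0.00 and 0.16. Both KO arrays lay above both WT arrays for 17 members and below them for 7, and this held for 23.7% and 23.5% of all genes. The members called lower and the members lying below were thus at shares near those of all genes. In bulk tissue, more cells of a type and more RNA per cell cannot be told apart.

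At 4 weeks limma called 0 members higher and 0 lower, against 0.0275% and 0% of all genes, and the lowest adjusted p was 0.999. With an unadjusted p under 0.05 there was 1 member higher, Atp6v1h, and 0 lower, against 1.79% and 1.95% of all genes. The differences ran from -0.23 to 0.36 with a median of -0.02, beside 0.01 for all genes. KO lay wholly above WT for 7 members and wholly below for 8, which was so for 19.4% and 17.5% of all genes. A difference of the size of the smallest one called at 10 weeks was not seen for any member at 4 weeks, and with 2 mice per group none of the smaller ones passed.

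**Figure D1:**
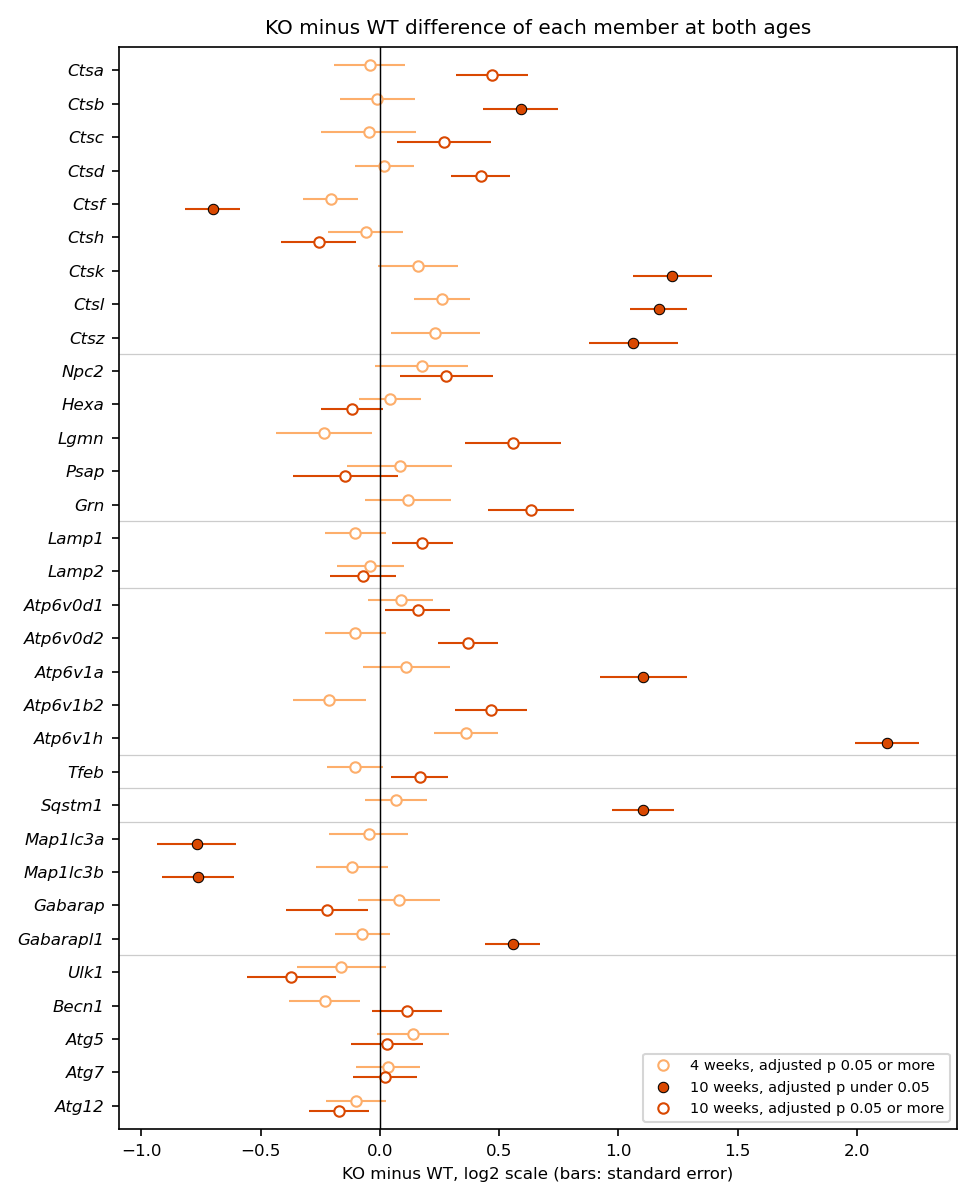
KO minus WT difference of the 32 measured members (log2 scale, bars are standard errors) at 4 weeks in light orange and 10 weeks in dark orange, filled where the adjusted p was under 0.05. No 4-week point is filled, and Atp6v1h stands farthest right at 2.13 at 10 weeks.

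Markers of other cells of the heart moved at the same age as the members. Beside their counts stand the shares of all genes called at 10 weeks, 5.19% higher and 6.89% lower. With genes below a mean log2 of 6 left out, the shares were 9.12% and 13.1%. Of 21 macrophage and myeloid markers 8 rose and 0 fell at 10 weeks, with a median of 0.47, Cd68 counting here and among the lysosomal membrane proteins. Their summed linear intensity was 6862 to 7787 in WT and 11685 to 14512 in KO, against 6375 to 6977 and 6781 to 7758 at 4 weeks. Of 13 fibroblast markers 9 rose and 0 fell, with a median of 1.02, and the sum was 8009 to 9847 in WT and 24606 to 25355 in KO, after 12737 to 15143 and 14924 to 16674 at 4 weeks. No array gives a true zero, and the dimmest macrophage markers were Itgam and Cx3cr1, with mean log2 values of 4.46 and 4.81. As examples from above the list medians, Csf1r, the macrophage growth factor receptor, rose by 1.11, Lgals3 by 3.30 and the fibroblast gene Postn by 3.67. The part of these cells in the rise of Ctsk, Ctsz and the other called members was not tested.

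Of 12 cardiomyocyte markers, with mean log2 values of 10.00 for Ryr2 to 14.25 for Myl2, 1 rose and 4 fell at 10 weeks, with a median of -0.12. Their sum was 126060 to 147060 in WT and 121160 to 132560 in KO, the groups overlapping. Endothelial markers gave 1 rise and 1 fall of 8, smooth muscle 1 rise of 7, lymphocyte 2 falls of 7, adipocyte and liver 0 calls, and atrial 1 rise and 1 fall of 4. Of all genes 5.19% rose and 6.89% fell, and in lists this short 1 or 2 calls cannot be set apart from those shares. The summed intensity of the 4 atrial markers was 6295 to 9286 in WT and 13175 to 28133 in KO at 4 weeks. At 10 weeks it was 15963 to 24145 in WT and 23348 to 23621 in KO. Any part of atrial tissue in the members' values was not tested.

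**Figure D2:**
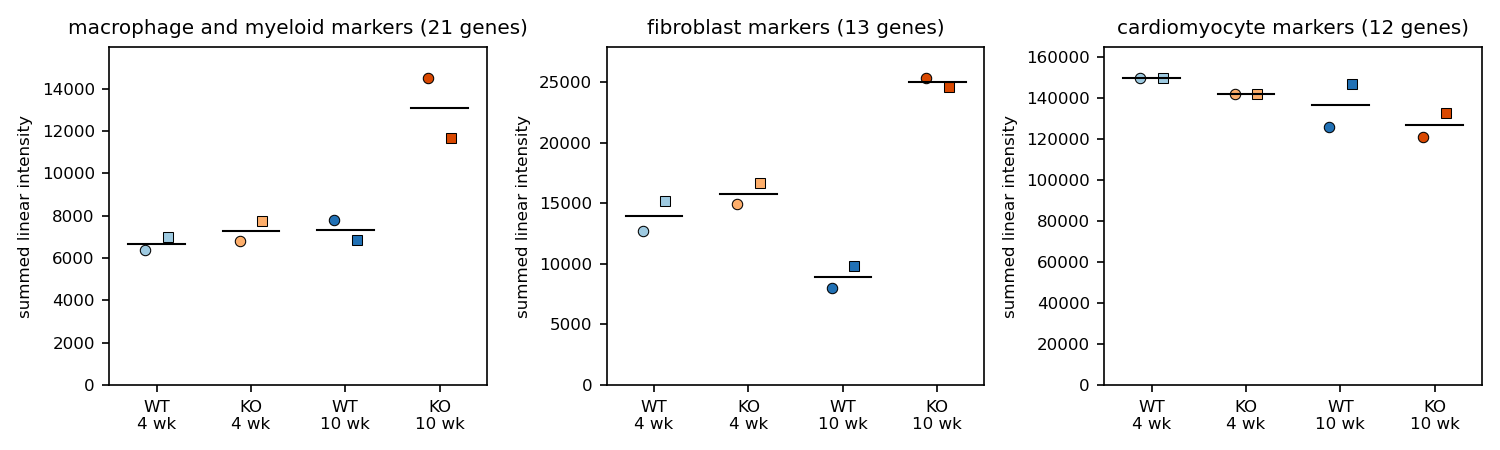
Summed linear intensity of the macrophage, fibroblast and cardiomyocyte marker lists by array (circles replicate 1, squares replicate 2, lines group means). The 10-week KO hearts are highest for the first and second lists and overlap with WT for the third.

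In the array of WT replicate 1 at 10 weeks several members stood away from replicate 2. Ctsb, Ctsz, Atp6v1a, Grn, Lgmn and Psap were lower there by over 0.4 on the log2 scale, and Map1lc3a, Gabarap, Npc2 and Ctsh were higher by as much. With 2 arrays it cannot be told which of them departs, and the share of all genes so far apart was not counted. The summed intensity of 5 liver markers was 4012 on replicate 1 and 484 on replicate 2. At 4 weeks it was 4196 in KO replicate 2 and 2773 in WT replicate 2, and over all arrays it ran from 271 to 4196. Without replicate 1 the counts at 10 weeks were again 8 higher and 3 lower, with Npc2 gained (0.59, adjusted p = 0.0465) and Ctsb lost (0.37, 0.166). Without replicate 2 they were 12 and 3, and of all genes 9.2% were then called higher and 8.63% lower.

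The promoters of members were read because many lysosomal genes carry a sequence bound by Tfeb and its relatives, the CLEAR element, whose core is an E-box. RefSeq windows of 250 bases before to 50 after the start (GRCm38.p6) matched 25 of the 33 members. The E-box letters CACGTG, searched on both strands, stood in the windows of 10 of them, 40%, and of 8.09% of 27025 genes with a window. The longer core TCACGTG, which contains the E-box, stood in 7, 28% of members and 4.29% of genes. Its palindrome TCACGTGA stood in 4 members, Ctsa, Ctsd, Atp6v0d1 and Atp6v1a, and in 1.12% of genes. The stretches printed here show the matches in capitals for members with a called difference at 10 weeks (Ctsl, Ctsf and Atp6v1a) and for the members with more than 1 match before the start (Ctsd and Lamp1), 5′ to 3′ on the gene's strand, which is the minus strand for Ctsl, Atp6v1a and Ctsd.
Ctsl, chr13:64370731-64370770: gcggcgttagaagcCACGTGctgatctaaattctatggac
Ctsf, chr19:4855066-4855111: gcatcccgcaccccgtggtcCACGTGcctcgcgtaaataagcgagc
Atp6v1a, chr16:44139364-44139411: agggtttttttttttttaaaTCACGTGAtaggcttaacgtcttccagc
Ctsd, chr7:142387899-142388077: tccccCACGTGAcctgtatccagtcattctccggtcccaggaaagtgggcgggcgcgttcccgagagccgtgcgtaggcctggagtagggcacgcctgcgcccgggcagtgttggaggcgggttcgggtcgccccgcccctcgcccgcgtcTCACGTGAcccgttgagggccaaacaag
Lamp1, chr8:13159079-13159160: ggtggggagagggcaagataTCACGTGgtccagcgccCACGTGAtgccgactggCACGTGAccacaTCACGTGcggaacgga

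Lamp1 held 4 E-boxes within its window, each with the adjoining base of the core, and its transcript read 0.18 ± 0.13 (SE) in KO minus WT at 10 weeks, which did not pass the test (adjusted p = 0.479). Atp6v1a, with 1 palindrome, was called higher at 1.10, and Ctsl (1.17) and Ctsf (-0.70) carry a plain E-box. Of the 7 measured members with the core, 1 was called higher and 0 lower, with a median of 0.42 and a range from 0.02 to 1.10. Among the 17 without it, 5 were higher and 2 lower, with a median of 0.17 and a range from -0.76 to 1.23. The antioxidant response letters TGACNNNGC stood in the windows of 24% of members and 14% of genes, and the amino acid response letters TGATGNAA in 8% and 4.51%. The window of Ctsl held 1 match to the last of these. A match is a string of letters and not a measured binding site, and 8 members, Atp6v1h and Map1lc3a among them, had no window here.

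The cathepsins, the acid proteases of the lumen, held 9 of the members, of which 4 rose at 10 weeks, 1 fell and 4 did not pass. Their median difference was 0.47, and they ran from -0.70 for Ctsf to 1.23 for Ctsk. At 4 weeks 0 of the 9 passed in either direction, with a median of -0.01.

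Ctsk, cathepsin K, is a collagen-degrading protease best known from osteoclasts. Its log2 intensity was 6.58 and 6.64 in WT and 6.71 and 6.84 in KO at 4 weeks, and at 10 weeks 6.30 and 6.14 in WT and 7.69 and 7.20 in KO. Both older KO hearts were above all other arrays, and the WT pair at 10 weeks was the lowest. The rise was 1.23 ± 0.17 (SE), or 2.34-fold, with an adjusted p of 0.00174.

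Ctsl, cathepsin L, is among the main cysteine proteases of heart lysosomes. It read 11.06 and 11.02 in WT against 11.31 and 11.30 in KO at 4 weeks, a difference of 0.26 that did not pass. In the 10-week hearts it read 11.01 and 10.86 in WT and 12.05 and 12.16 in KO. The KO arrays were above WT without overlap at both ages, and the 10-week rise of 1.17 ± 0.12, or 2.25-fold, had an adjusted p of 0.000447. A second, dim probe set of Ctsl, with a mean log2 of 4.87, read 0.21.

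Ctsz, cathepsin Z, is a carboxypeptidase abundant in macrophages. Its arrays read 8.15 and 8.54 in WT and 8.58 and 8.58 in KO at 4 weeks, and 7.91 and 8.42 in WT and 9.24 and 9.21 in KO at 10 weeks. The WT arrays were farther apart than the KO arrays at each age, and KO exceeded WT by 1.06 ± 0.19 at 10 weeks (2.09-fold, adjusted p = 0.00599). Its other probe sets read 1.11 and 0.99, and without WT replicate 1 the difference was 0.80 (adjusted p = 0.0162).

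Ctsb, cathepsin B, is among the most abundant lysosomal proteases. It read 11.50 and 11.61 in WT and 11.46 and 11.63 in KO at 4 weeks, then 11.14 and 11.58 in WT and 11.92 and 11.98 in KO at 10 weeks. The older KO arrays were the highest of the 8 and the rise was 0.59 ± 0.16, or 1.51-fold, close to the threshold (adjusted p = 0.0402). A second bright probe set read 0.55 and was also called. The remaining ones, with mean log2 values of 8.15, 6.94 and 5.34, read 0.54, 0.32 and 0.25. They were not called (adjusted p over all probe sets = 0.0807, 0.422 and 0.51). The call of the brightest was lost without either 10-week KO array (0.62 and 0.56, adjusted p = 0.137 and 0.169). It was also lost without WT replicate 1 of that age (0.37, 0.166) and without each 4-week array (0.59, 0.0618 to 0.0818). It was lost as well with the mean of its probe sets (0.45, 0.0655), with arrays centred on their medians (0.57, 0.0744), with the trend and robust options of eBayes (0.59, 0.0515) and when the compared groups alone were fitted (0.59, 0.143).

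Ctsf, cathepsin F, was the cathepsin that fell. Its values were 8.32 and 8.27 in WT and 8.14 and 8.04 in KO at 4 weeks, and 8.15 and 8.17 in WT and 7.41 and 7.50 in KO at 10 weeks. The older KO pair was the lowest, and KO was below WT without overlap at both ages. The fall at 10 weeks was -0.70 ± 0.12, 1.63-fold lower, with an adjusted p of 0.00448. Its second probe set was dim, with a mean log2 of 4.00, and read 0.10, and averaging both ended the call (-0.30, adjusted p = 0.141).

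The 4 cathepsins that did not pass at 10 weeks were Ctsa, Ctsc, Ctsd and Ctsh. Ctsd, cathepsin D, the main aspartic protease of lysosomes, read 11.32 and 11.39 in WT and 11.69 and 11.87 in KO, a difference of 0.42 ± 0.12 (adjusted p = 0.054). Ctsa, the protective protein of lysosomal glycosidases, read 8.92 and 9.22 in WT and 9.46 and 9.63 in KO, a difference of 0.47 ± 0.15 (0.077). Neither gene's groups overlapped. Ctsd has 1 probe set, and it passed with quantile normalization again (0.63, 0.00932), with dim genes left out (0.0472) and with probe sets averaged per gene, which leaves its own value as it is (0.0322). Ctsa was 0.62 and passed without WT replicate 2 (0.0236) and 0.59 with quantile normalization again (0.0121). It was 0.32 without WT replicate 1 (0.287) and 0.23 with the mean of its probe sets (0.165), the second of which read -0.0083. Ctsc, which activates serine proteases of immune cells, read 0.27 ± 0.20, its KO arrays lying at 9.55 and 8.88 on either side of the WT pair, and Ctsh, an aminopeptidase, read -0.26 ± 0.16.

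The other 5 proteins of the lumen gave 0 calls at either age, with a median difference of 0.28 at 10 weeks. Grn, progranulin, a secreted and lysosomal growth regulator, was nearest to the threshold. It read 8.54 and 8.68 in WT and 8.74 and 8.71 in KO at 4 weeks, and 7.88 and 8.47 in WT and 8.86 and 8.75 in KO at 10 weeks. KO was above WT at both ages, and the 10-week difference of 0.64 ± 0.18 missed the threshold (adjusted p = 0.0504). It passed without WT replicate 2 (0.93, 0.00181) and was 0.34 without WT replicate 1 (0.192). It also passed with quantile normalization again (0.68, 0.019) and with dim genes left out (0.04). Its other probe sets read 0.37 and 0.31 and were not called, and without probe sets of shared sequence it was 0.37 (0.206).

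Lgmn, legumain, the asparaginyl protease that processes cathepsins, read 6.51 and 6.93 in WT and 7.49 and 7.06 in KO at 10 weeks. Its difference of 0.56 ± 0.20 did not pass (adjusted p = 0.118). Without WT replicate 2 it was 0.77 and passed (0.0331), without WT replicate 1 it was 0.35 (0.402), and without KO replicate 1 it was 0.34 (0.517). Npc2, the cholesterol carrier of the lumen, read 0.28 ± 0.20, Hexa, a subunit of hexosaminidase, -0.12 ± 0.13, and Psap, the precursor of the saposins, -0.14 ± 0.22. The 10-week WT and KO arrays of Npc2 and Psap overlapped.

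Of the lysosomal membrane proteins Lamp1 and Lamp2 were measured, the heavily glycosylated proteins that line the organelle. Lamp1 read 10.78 and 10.97 in WT and 10.98 and 11.12 in KO at 10 weeks, and 10.99 and 11.08 in WT and 10.88 and 10.98 in KO at 4 weeks. KO lay above WT at 10 weeks, the nearest arrays almost touching, and below it at 4 weeks. Lamp2, whose loss causes a vacuolar heart muscle disease, differed by -0.07 ± 0.14 at 10 weeks (adjusted p = 0.839), and its other probe sets read 0.00, 0.22 and 0.38.

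The proton pump gave the member with the largest difference. All 5 measured subunits had a KO minus WT difference above 0 at 10 weeks, 2 of them passed, and the median was 0.47, where it was 0.09 at 4 weeks. The subunits lie in the catalytic domain V1, which splits ATP on the cytosolic side, or in the membrane domain V0, which passes protons.

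Atp6v1h encodes subunit H of V1, which couples ATP use to transport. Its log2 intensity was 6.81 and 6.90 in WT and 7.21 and 7.21 in KO at 4 weeks. At 10 weeks it was 6.51 and 6.79 in WT and 8.70 and 8.85 in KO. The order of the arrays placed both older KO hearts well above every other heart, with the younger KO pair next and the 4 WT hearts below. The 10-week rise was 2.13 ± 0.13, 4.37-fold, with an adjusted p of 3.46e-05, and the 4-week difference was 0.36 ± 0.13 with an unadjusted p of 0.0244 and an adjusted p of 0.999. A second, dim probe set, with a mean log2 of 4.81, read 0.96 and was called, and another at 2.78 read 0.17.

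Atp6v1a encodes the catalytic subunit A of V1. Its values were 7.66 and 7.67 in WT and 7.70 and 7.85 in KO at 4 weeks, and 6.88 and 7.37 in WT and 8.41 and 8.05 in KO at 10 weeks. The older KO pair was highest and the older WT pair lowest. The rise of 1.10 ± 0.18, 2.15-fold, had an adjusted p of 0.00448, the other probe set read 1.16 and was called, and without WT replicate 1 the difference was 0.86 (adjusted p = 0.0115).

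The other 3 subunits did not pass. Atp6v1b2, the B subunit of V1 in most tissues, read 7.87 and 8.21 in WT and 8.37 and 8.64 in KO at 10 weeks, a difference of 0.47 ± 0.15 (adjusted p = 0.0855). It was 0.64 and passed without WT replicate 2 (0.0199), and was 0.30 without WT replicate 1 (0.323). With quantile normalization again it was 0.50 and passed (0.0262), and the mean of its probe sets gave 0.27 (0.164). A further probe set of it read 0.60 and was called (adjusted p over all probe sets = 0.0399), and its 2 dim ones read 0.00 and 0.01. Atp6v0d1, the common d subunit of V0, read 0.16 ± 0.14. Atp6v0d2, its counterpart in osteoclasts and macrophages, had a mean log2 below 6 and read 4.03 and 3.92 in WT and 4.41 and 4.28 in KO at 10 weeks, a difference of 0.37 ± 0.13 (adjusted p = 0.100) near the floor of the array.

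**Figure D3:**
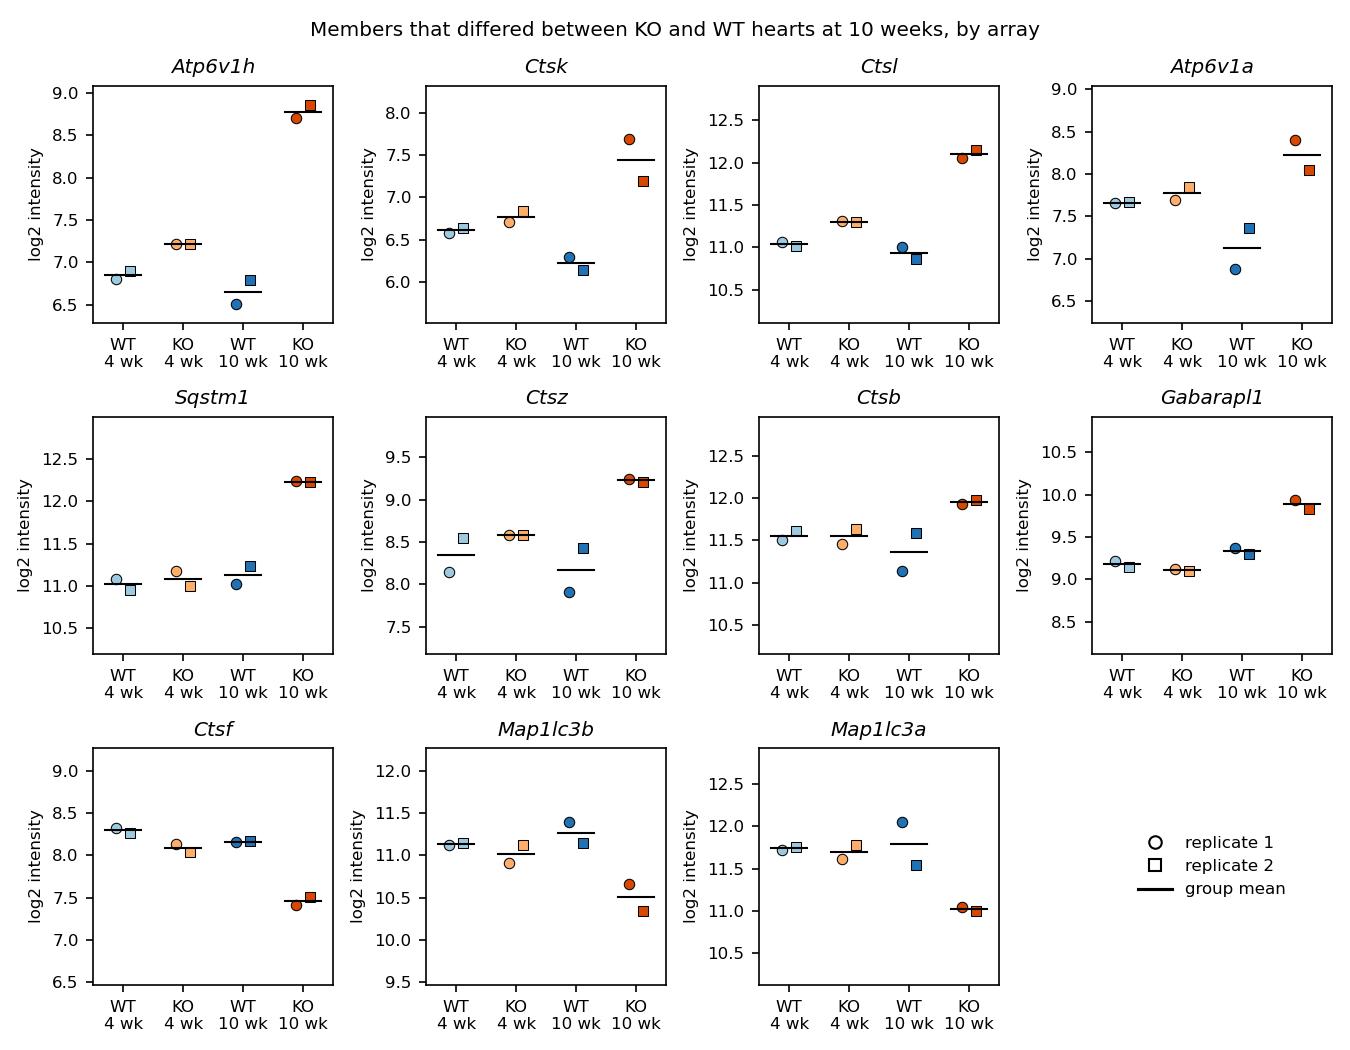
Log2 intensity by array of the 11 members called at 10 weeks (circles replicate 1, squares replicate 2, lines group means, every panel spanning the same number of log2 units). The 10-week KO pair is highest in 8 panels and lowest in the panels of Ctsf, Map1lc3b and Map1lc3a.

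Tfeb, the transcription factor that drives lysosomal genes when it enters the nucleus, did not pass at either age at the level of its transcript. It read 7.26 and 7.31 in WT and 7.14 and 7.22 in KO at 4 weeks, and 7.40 and 7.29 in WT and 7.45 and 7.58 in KO at 10 weeks. KO was below WT at 4 weeks and above it at 10 weeks, and the 10-week difference of 0.17 ± 0.12 did not pass (adjusted p = 0.473). Its place in the cell was not measured.

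Sqstm1, sequestosome, is the receptor that binds ubiquitin-tagged cargo and ATG8 proteins and is itself consumed by autophagy. It read 11.09 and 10.96 in WT and 11.17 and 11.00 in KO at 4 weeks, and 11.03 and 11.23 in WT and 12.24 and 12.23 in KO at 10 weeks. The younger groups overlapped, and the older KO hearts stood about 1 log2 unit above all others. The rise of 1.10 ± 0.13, 2.15-fold, had an adjusted p of 0.000901, and a dim probe set with a mean log2 of 4.42 read 0.10.

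The ATG8 family, whose proteins are joined to lipid in the autophagosome membrane, moved in both directions at 10 weeks. Of the 4 members measured, Gabarapl1 rose, Map1lc3a and Map1lc3b fell and Gabarap did not pass. The median difference was -0.49 at 10 weeks and -0.06 at 4 weeks, where 0 passed.

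Map1lc3b, the LC3B protein used as the usual marker of autophagosomes, read 11.13 and 11.14 in WT and 10.91 and 11.12 in KO at 4 weeks, and 11.39 and 11.14 in WT and 10.66 and 10.35 in KO at 10 weeks. The 2 older KO hearts were the lowest of the 8. The fall was -0.76 ± 0.15, 1.70-fold lower (adjusted p = 0.0108). Its next 2 probe sets by brightness read -0.96 and -1.15 and were called, and a dim one read -0.09. Without KO replicate 2 of that age the brightest read -0.61 and lost its call (adjusted p = 0.0802).

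Map1lc3a, LC3A, read 11.72 and 11.76 in WT and 11.61 and 11.78 in KO at 4 weeks, and 12.05 and 11.54 in WT and 11.05 and 11.00 in KO at 10 weeks. The WT pair at 10 weeks was the widest apart, and the KO pair lay below it. The fall of -0.77 ± 0.17, 1.70-fold lower, passed (adjusted p = 0.0158), and a second probe set read -0.69 and also passed. The call was lost without KO replicate 1 (-0.79, 0.0756) or KO replicate 2 (-0.74, 0.0871) of that age, the sizes staying alike.

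Gabarapl1, a further ATG8 protein, read 9.21 and 9.15 in WT and 9.12 and 9.09 in KO at 4 weeks, and 9.36 and 9.30 in WT and 9.94 and 9.84 in KO at 10 weeks. Its order was the reverse of the LC3 genes, with the older KO pair highest. The rise was 0.56 ± 0.12, 1.47-fold (adjusted p = 0.0131), the other probe set read 0.53 and was called, and the call was lost without KO replicate 1 of that age (0.50, 0.085). Gabarap read 11.35 and 10.86 in WT and 10.95 and 10.81 in KO at 10 weeks, overlapping, a difference of -0.22 ± 0.17 (adjusted p = 0.515).

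**Figure D4:**
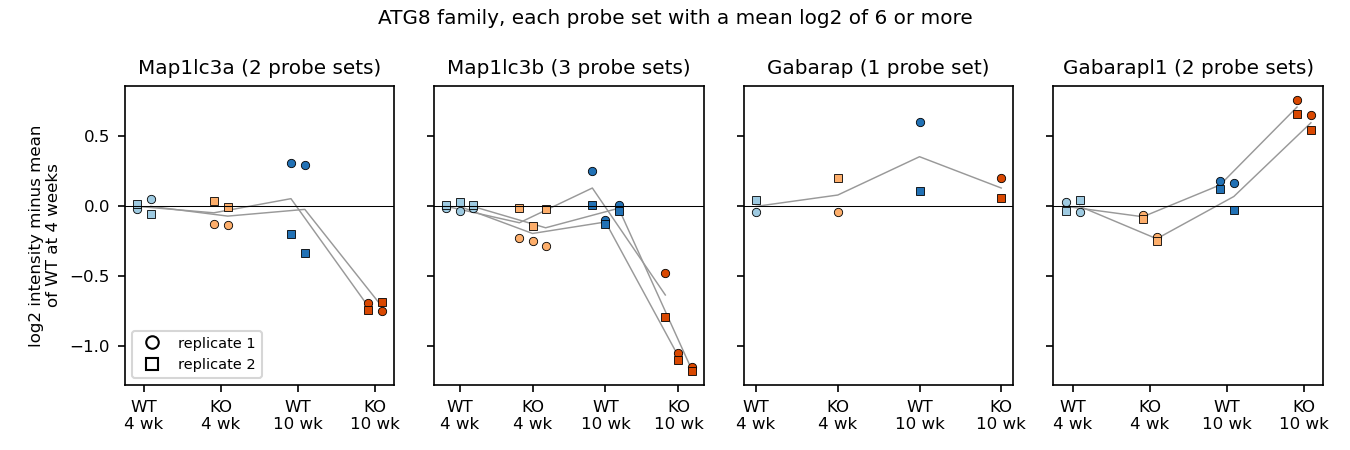
Log2 intensity of each probe set of the ATG8 family with a mean log2 of 6 or more, relative to its WT mean at 4 weeks (circles replicate 1, squares replicate 2, grey lines join group means). All probe sets of Map1lc3a and Map1lc3b lie below 0 in the older KO hearts, and both of Gabarapl1 lie above.

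The genes that start autophagosomes and conjugate ATG8 proteins gave 0 calls at 4 or 10 weeks, with a median difference of 0.02 at the older age. Ulk1, the kinase that starts autophagy, read 7.30 and 7.57 in WT and 6.84 and 7.29 in KO at 10 weeks, KO lying just below WT, and the difference of -0.37 ± 0.19 did not pass (adjusted p = 0.278). Becn1, of the lipid kinase complex, read 0.11 ± 0.15, and its other probe sets read from 0.07 to 0.47. Atg7, the activating enzyme of the conjugation system, read 0.02 ± 0.13, and Atg12, a ubiquitin-like protein of it, -0.17 ± 0.13. Atg5, the partner of Atg12, read 0.03 ± 0.15 on its brightest probe set (adjusted p = 0.943), and a further probe set of it read -0.50 and was called (adjusted p over all probe sets = 0.0474), so the probe sets of Atg5 disagreed.

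Whether the KO difference changed with age was tested as the 10-week difference minus the 4-week one. It passed for 3 members, all with a larger rise at 10 weeks: Atp6v1h (1.77 ± 0.19, adjusted p = 0.00314), Sqstm1 (1.04 ± 0.18, 0.0277) and Ctsl (0.91 ± 0.17, 0.0314). Over all genes 0.879% passed upwards and 1.2% downwards. In limma 0 members passed downwards, and Ctsf, Map1lc3a and Map1lc3b did so at an unadjusted p under 0.05. These were 9.38% of members, and 7.4% of all genes passed downwards at that threshold. Upwards 13 members did, 40.6%, and 6.53% of all genes. A further probe set of Map1lc3b, with a mean log2 of 9.59, changed by -0.996 ± 0.18 and passed (adjusted p over all probe sets = 0.0327). Ctsk (1.07 ± 0.24, adjusted p = 0.0566), Gabarapl1 (0.63 ± 0.16, 0.0937) and Atp6v1a (0.99 ± 0.26, 0.0952) missed the threshold. Atp6v1h kept its call without each array in turn. Ctsl and Sqstm1 lost theirs without any of the 4-week arrays or either 10-week KO array (adjusted p 0.0802 to 0.171 and 0.0696 to 0.167), and the count ran from 1 without each 4-week array, or without KO replicate 1 at 10 weeks, to 10 without WT replicate 2 at 10 weeks, where the share of all genes that passed in either direction went from 2.08% to 8.79%.

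Between 4 and 10 weeks the KO hearts showed 6 members higher and 3 lower. Atp6v1h rose by 1.57 (adjusted p = 0.000245), Sqstm1 by 1.14 (0.00101), Ctsl by 0.80 (0.00338), Gabarapl1 by 0.78 (0.00323), Ctsk by 0.67 (0.0336) and Ctsd by 0.58 (0.0168). Ctsf (-0.63, 0.0094), Map1lc3a (-0.67, 0.0342) and Ulk1 (-0.75, 0.0346) fell. Of all genes 3.42% rose and 7.07% fell, so the members called lower were again at a share near that of all genes, 9.38%. With quantile normalization again the members' split was 9 higher and 2 lower and the share of higher genes among all calls 45.4%, beside 32.6% as reported and 23.5% with arrays centred on their medians. The 3 falls went to 0 without either 4-week KO array or 10-week KO replicate 1, and to 1 without either 4-week WT array. Over the arrays whose loss ended a call, the adjusted p was 0.0553 to 0.0709 for Ctsf (3 arrays), 0.0754 to 0.225 for Map1lc3a (6 arrays) and 0.0517 to 0.257 for Ulk1 (5 arrays). Of the rises, Ctsd lost its call without either 4-week KO array or 10-week KO replicate 2 (0.0591 to 0.132), and Ctsk without any 4-week array or 10-week KO replicate 1 (0.0741 to 0.199).

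In WT hearts limma called 0 members higher and 0 lower between the ages, against 0.0495% and 0.066% of all genes, and the lowest adjusted p was 0.229. At an unadjusted p under 0.05 there were 0 higher and 5 lower, Ctsa, Ctsk, Grn, Atp6v1a and Ulk1. The members lower were 15.6%, and of all genes 8.31% were higher and 9.75% lower at that threshold. Ulk1, which fell with age in KO, differed by -0.54 (adjusted p = 0.232) in WT. Atp6v1a differed with age by -0.54 in WT and by 0.45 in KO, and neither passed. Npc2, Gabarap, Grn and Atp6v1a differed with age in WT by 0.33, 0.35, -0.44 and -0.54 with all arrays. Without WT replicate 2 at 10 weeks, which leaves 1 WT array at that age, they differed by 0.64, 0.60, -0.73 and -0.79.

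Further genes of the pathway came from 6 lists of 151 genes, 141 of them measured. At 10 weeks 14 rose and 15 fell, where 5.19% of all genes rose and 6.89% fell. With genes below a mean log2 of 6 left out, those shares of all genes were 9.12% and 13.1%. The same shares stand beside each list below. At 4 weeks 0 passed in either direction, against 0.0275% and 0% of all genes. Of 34 hydrolases, cofactors and inhibitors, 7 rose and 1, Aga, fell, with a median of 0.26. Cstb, the cytosolic inhibitor of cathepsins, rose by 1.05 ± 0.22 (adjusted p = 0.0147) and Ctss, the cathepsin of antigen-presenting cells, by 0.98 ± 0.22 (0.0203). Galns, a sulfatase that degrades keratan sulfate, rose by 0.75 ± 0.13 (0.00514) and Dnase2a, the acid nuclease, by 0.71 ± 0.15 (0.0157). Aga, which removes asparagine from glycoproteins' sugar chains, read -0.58 ± 0.15 (0.0349) and was named after its value was seen.

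The 21 further membrane and transport proteins gave 1 rise, 4 falls and a median of 0.01. Cd68, a macrophage glycoprotein of the LAMP family, rose by 1.80 ± 0.18 (adjusted p = 0.000452). Npc1, the membrane partner of Npc2 in cholesterol export, fell (-0.82 ± 0.20, 0.0254), as did Laptm4b (-0.82 ± 0.17, 0.0117) and Tmem106b (-0.60 ± 0.16, 0.0398). Of 15 further proton pump subunits 0 rose and Atp6v0b, a proteolipid of V0, fell (-0.68 ± 0.17, 0.0308), with a median of 0.03. The 2 called pump members, Atp6v1h and Atp6v1a, were thus the only subunits called higher among the 20 measured here.

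Among 32 further genes of the autophagy machinery 2 rose and 2 fell, with a median of 0.14. Vps11, of the tethering complex that brings vesicles to lysosomes, rose by 0.80 ± 0.15 (adjusted p = 0.0073), and Wipi1, which binds the lipid of forming autophagosomes, by 0.78 ± 0.16 (0.013). Its relative Wipi2 fell (-0.61 ± 0.13, 0.0146), as did the conjugating enzyme Atg10 (-0.74 ± 0.16, 0.0161). The further list of selective receptors held Pink1, a kinase, and did not hold the member Sqstm1, which rose. Its 13 measured genes gave 0 rises and 2 falls, with a median of -0.21. These were Bnip3 (-1.28 ± 0.22, 0.00514), a receptor on the outer mitochondrial membrane, and Pink1 (-0.83 ± 0.20, 0.0236), the kinase that marks damaged mitochondria.

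The 26 transcription factors and regulators of mTORC1, the kinase complex that holds autophagy back, gave 4 rises and 5 falls with a median of 0.00. Mitf, a relative of Tfeb, fell (-1.08 ± 0.18, adjusted p = 0.00472) and Mtor, the kinase itself, rose by 0.92 ± 0.17 (0.0069). Sesn1, an inhibitor of mTORC1, fell (-0.80 ± 0.19, 0.0226) and Fnip2, a partner of folliculin, rose by 0.79 ± 0.15 (0.00872). Tfe3, the other close relative of Tfeb, read 0.18 ± 0.13 (0.457), and was named after its value was seen.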

How the data were processed

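Total RNA from 8 hearts was hybridised to Affymetrix mouse arrays. The deposited values are probe set intensities; the submitters' processing notes name GCOS 1.3 and RMA as the authors' tools. RMA in its usual form corrects background, equalises the arrays' distributions and summarises probes. The deposited distributions were not equal, as array medians ran from 34.3 to 37.4. Quantile normalization again moved the 10-week difference of Ctsb from 0.59 to 0.79. It gave 12 members higher and 3 lower at 10 weeks, with 6.79% and 7.12% of all genes. The scale was linear (lowest 4.90), so log2 was taken here without a pseudocount. Of 45101 probe sets, 64 controls were left out. The platform annotation gives 1 gene for 34945 of the other 45037, several for 932 and none for 9160, and 34741 matched RefSeq by Entrez ID. The brightest probe set, by mean over the arrays, stood for each of 18193 genes.

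Samples were grouped by the labels' genotype and age. In limma 3.58.1 (R 4.3.3), a mean for each of the 4 groups was estimated from the whole set of arrays (eBayes, 4 residual degrees of freedom, 9.33 in total), with two-sided tests and Benjamini-Hochberg adjustment over all genes, called at 0.05. The median SE of a 10-week difference was 0.145. The code was tested on simulated data. No label says that replicate numbers pair mice, so the fit has no block. No batch is named in the labels, and 0 pairs of arrays were identical.

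All measured members are named. Of each further pathway list up to 4 called genes with the largest 10-week difference are named, and names outside this rule are marked where they stand. Cell type markers are named as examples, for their level or where lists share them. The members and lists were chosen with earlier results of these data known. Promoter windows and coordinates are RefSeq's. A single gene's result is left out. The alternatives were each probe set tested on its own, probe sets averaged per gene, omission of probe sets with shared sequence, a filter on dim genes (mean log2 below 6), repeated quantile normalization, median centring, eBayes with trend and robust options, fits of the compared groups alone, a block for the replicate number, and omission of each array.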

Additional observations from a re-analysis of the deposited data

Results flagged for a closer look

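Of the measured members, 3 had a KO minus WT difference that was larger at 10 than at 4 weeks by the test of the difference itself (limma, Benjamini-Hochberg over all genes). The excess was 1.77 on the log2 scale for Atp6v1h, from 0.36 at 4 weeks to 2.13 at 10 weeks, the KO arrays lying above the WT arrays at each age. It was 1.04 for Sqstm1, from 0.07 to 1.10, with the 4-week groups overlapping. For Ctsl it was 0.91, from 0.26 to 1.17, again with KO above WT in every array at each age. With 2 arrays per group no formal test for outlying samples was run, and the gaps between the 2 WT arrays at 10 weeks are described above.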

How the results depend on the processing

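Ctsk, Ctsl, Ctsz, Atp6v1a, Atp6v1h and Sqstm1 kept their 10-week call and direction in all 17 alternatives, and the 4-week counts were 0 in each. The count of members lower at 10 weeks was 1, against 3, when only the compared groups were fitted (Map1lc3b 0.0636 and Map1lc3a 0.0855 losing their call, with Gabarapl1 at 0.0841 and Ctsb at 0.143 among the rises), and 1 to 3 with 1 array left out. Leaving out arrays gave 1 to 10 members with a change between the ages, 0 to 4 lower with age in KO, and 0 to 2 higher and 0 to 2 lower with age in WT. Over 18193 genes, replicate 1 minus replicate 2 in KO correlated with the same in WT at 0.302 (4 weeks) and 0.230 (10 weeks). Each correlation rests on 2 arrays per group. The replicate block gave 12 higher and 3 lower at 10 weeks, 0 at 4 weeks and 4 changed between the ages. It added Ctsa (adjusted p = 0.0289), Atp6v1b2 (0.0305), Grn (0.041) and Ctsd (0.047) at 10 weeks and Ctsk (0.0201) to the changes between the ages, and ended no call. It could not be fitted for the age comparisons. Members whose uncalled 10-week difference turned sign were Psap (0.022 with quantile normalization again, -0.51 to 0.22 with 1 array left out), Lamp2 (0.13 with the mean of probe sets, 0.077 with quantile normalization, -0.17 to 0.026), Atg7 (-0.023 with quantile normalization, -0.026 to 0.071), Atg5 (-0.23 with the mean of probe sets, -0.13 to 0.19, and -0.50 with adjusted p = 0.0402 without probe sets of shared sequence), Ctsc (-0.069 to 0.61), Npc2 (-0.028 to 0.59), Gabarap (-0.47 to 0.023) and Becn1 (-0.029 to 0.26). For Atg5 and the mean the probe sets themselves disagree, and otherwise the cause was not tested. With the mean of probe sets, the change between ages of Ctsl was 0.55 (adjusted p = 0.109) and of Sqstm1 0.48 (0.347), each having a dim second probe set, and with trend and robust settings Ctsl had an adjusted p of 0.0526. The number of arrays limits all of these.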
